A study of Mus musculus with 20 samples.

Results

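Epiblast-like cells (EpiLCs) made from PGC-ESC lines were compared with EpiLCs labelled Host, gene by gene, in 5 poly(A) RNA libraries of 20 in the series. The EpiLC PGC-ESC DKO group held 3 libraries (DKO 1, 2 and 3), whose parents are stem cell lines named after primordial germ cells (PGCs) and labelled with a double knockout (DKO) of Puma and Noxa. The EpiLC Host group held 2 libraries (Host 3 and Host 4) from wildtype lines. All 5 were chosen by their labelled names, and all carry the strain label C57Bl6J. The parent lines, PGC-ESC DKO (n = 3) and ESC Host (n = 4, of which lines 3 and 4 share their numbers with the EpiLC libraries), were grown as embryonic stem cells with LIF, a GSK3 inhibitor and a MEK inhibitor. How the PGC-ESC lines were made and how cells were converted to EpiLCs the sources used here do not give. The groups differ at once in cell of origin, in the double knockout and in carrying an EGFP reporter, so these cannot be told apart, and each library is 1 line. Nothing in the labels ties replicates to separate conversions. The p-values rest on the spread between libraries within groups, estimated over all 20 libraries and not over these 5 alone. A line present as EpiLC and as parent enters that fit as independent libraries.

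EpiLCs model the formative epiblast, the stage at which pluripotent cells have left the naive state of the preimplantation embryo and become able to respond to germ cell inducing signals. During this step naive factors such as Klf2, Esrrb and Tfcp2l1 are shut off, and Otx2, Pou3f1, Fgf5 and the methyltransferase gene Dnmt3b are switched on. Puma (gene Bbc3) and Noxa (gene Pmaip1) are BH3-only proteins, the members of the BCL-2 family that relay death signals to Bax and Bak at the mitochondrion.

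The labelled cell state was checked against its markers first. The summed level of 16 naive genes was 653, 459, 597, 759 and 733 CPM (counts scaled to the library total) in EpiLC Host 3, Host 4, DKO 1, DKO 2 and DKO 3, between 9.37% and 15.8% of the sum in each line's own parent. In every line 15 of the 16 were lower than in the parent. The summed level of 15 formative genes was 3.18, 5.63, 4.39, 5.22 and 5.79 times that of the parent in the same order. Fgf5, the epiblast growth factor, stood at 53.4 and 62.3 CPM in Host and at 50.03, 47.1 and 71.5 CPM in DKO, against at most 0.451 CPM in any parent. Pou3f1, a POU transcription factor of the epiblast, was at 276 and 421 CPM in Host and at 429, 367 and 561 CPM in DKO. Both groups had thus left the naive profile and carried formative markers.

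Few genes were called between the 2 EpiLC groups. Tested with the quasi-likelihood method of edgeR, with Benjamini-Hochberg adjustment across 16363 genes, 7 genes (0.0428%) differed at an adjusted p under 0.05. EGFP and Wdfy1 were higher in DKO, and Pmaip1, Ivd and the zinc finger genes Gm14295, Gm14305 and Gm14410 were lower. The unadjusted p was under 0.05 for 498 genes (3.04%), 334 higher and 164 lower in DKO. For 57.7% of the genes the 95% interval of the difference lay within a 2-fold change in either direction, so a small count of calls does not show that the remaining genes were equal. In data simulated for this comparison over 16363 genes, the test recovered 35% of 200 genes changed 2-fold and 84% of 200 changed 4-fold, with 5.41% and 5.62% false calls.

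**Figure D1:**
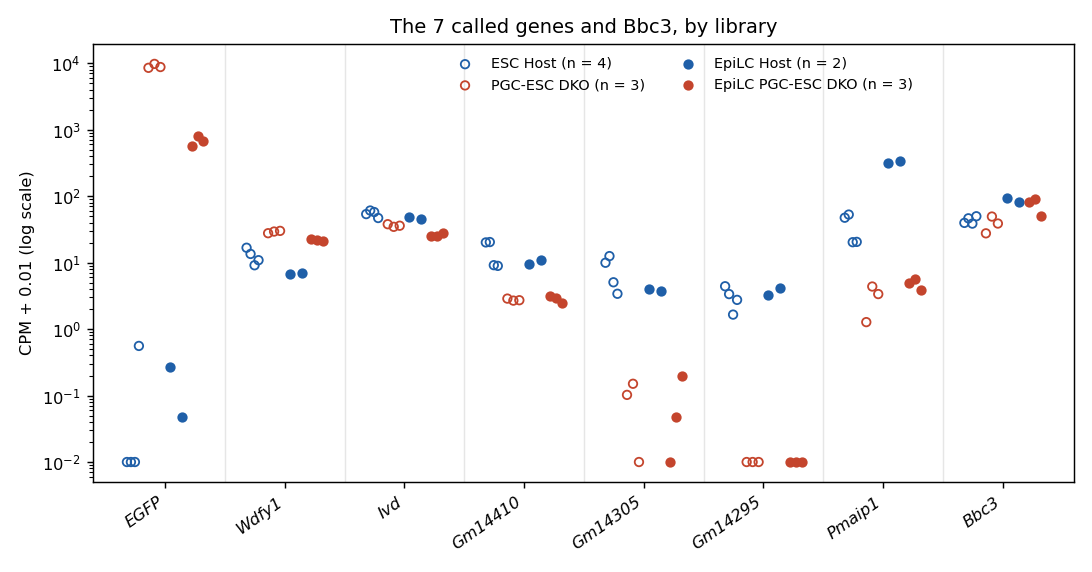
Levels of the 7 called genes and of Bbc3 in each library, as CPM + 0.01 on a log axis, for the ESC Host and PGC-ESC DKO parents (open circles) and the EpiLC groups (filled circles). The filled blue and red circles are apart for each called gene and overlap for Bbc3.

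Library totals of the 5 EpiLC libraries ran from 16075669 to 33376660 counts, and over all 20 libraries from 14255399. The first principal component of the 5 libraries held 49.2% of the variance and set DKO 3 and Host 3 at its ends. DKO 3 correlated with the others at r = 0.973 to 0.984 across genes, and all other pairs at 0.987 to 0.994. The summed level of 4 Y-linked genes was 0 in Host 3, DKO 1 and DKO 2, 19.7 CPM in Host 4 and 176 CPM in DKO 3. The ribosomal RNA precursor Rn45s stood at 33234 and 27532 CPM in Host and at 23882, 19984 and 17130.3 CPM in DKO. Among the parents it was at 3813 and 4187 CPM in ESC Host 1 and 2 and at 27026 and 51924 CPM in ESC Host 3 and 4. In PGC-ESC DKO it ran from 24395 to 45205 CPM. The part of these differences between libraries in the results was not tested. Host 3 also stood apart along the proximal end of chromosome 17, as described below.

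The targeted genes were examined in every library. Pmaip1 (GRCm38, chromosome 18, 66458604 to 66465558), which encodes Noxa, was at 314 and 333 CPM in Host 3 and Host 4 and at 4.85, 5.69 and 3.86 CPM in DKO 1, 2 and 3. The groups were far apart, with a log2 fold change of -6.06 ± 0.77 (SE; adjusted p 0.00118). In ESC Host the gene stood at 20.2 to 52.7 CPM and in PGC-ESC DKO at 1.26 to 4.35 CPM, a difference of -3.52 ± 0.69 on the log2 scale that just missed the threshold (adjusted p 0.0567). Pmaip1 was thus the gene of the double knockout whose level separated the groups, and its level in EpiLC Host exceeded that in any ESC Host line. The test of whether the DKO minus Host difference itself changed between the EpiLC and the parent state did not pass for it (-2.54 ± 0.94, adjusted p 1).

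Bbc3 (chromosome 7, 16308398 to 16318334), which encodes Puma, was at 94.3 and 82.2 CPM in Host and at 82.6, 90.5 and 50.4 CPM in DKO. The groups overlapped, and the difference was -0.24 ± 0.27 with a 95% interval from -0.81 to 0.34 (adjusted p 1). Counts over the whole gene do not say which part of a transcript is left, and which part of Bbc3 was deleted the sources used here do not give. Between the EpiLC groups no gene among the 38 tested within 1 Mb of Bbc3 was called. Among the 20 tested within 1 Mb of Pmaip1, Pmaip1 was the single call. Ccbe1, also among these 20, was called between the parents in the same test (3.81, adjusted p 2.07e-05) and is described below.

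Of 8 BH3-only genes 1 was called (Pmaip1), and the list's median log2 fold change was -0.18 beside 0.01 over all tested genes. Bcl2l11, which encodes the BH3-only protein Bim, was at 50.7 and 52.8 CPM in Host and at 71.8, 71.7 and 59.2 CPM in DKO (0.40 ± 0.19, unadjusted p 0.0499, adjusted p 1). Hrk, another BH3-only gene, was at 9.06 and 10.3 CPM in Host and at 8.12, 7.33 and 4.85 CPM in DKO, and did not pass. None of 7 tested BCL-2 effectors and inhibitors was called. Mcl1, the most abundant inhibitor, was at 664 and 616 CPM in Host against 613, 634 and 704 CPM in DKO. None of 16 caspase and death receptor genes was called, and Cycs, which encodes cytochrome c, stood at 130.5 to 154 CPM in all 5 libraries. Among 20 targets of p53 none was called and the median was 0.15. Ccng1, the most abundant of them, was at 437 and 294 CPM in Host and at 332, 359 and 309 CPM in DKO. Cdkn1a, the p53-induced cell cycle inhibitor p21, was at 182 and 124 CPM in Host and at 212, 240 and 172 CPM in DKO, with overlapping groups.

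EGFP, the reporter transcript, gave 7 counts in the 2 Host libraries together (0.255 and 0.0377 CPM) and 568, 807 and 676 CPM in DKO. The ratio of the pooled levels was 4822, with a 95% interval for counting error of 2340 to 11993. The parents stood at 8485, 9722 and 8719 CPM in PGC-ESC DKO, so all 3 DKO lines read less of the reporter as EpiLCs than as stem cells. The test of the change in the DKO minus Host difference did not pass for EGFP (adjusted p 1). EGFP is not a mouse gene, so its difference marks the lines and is no finding about EpiLCs.

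The 3 zinc finger genes lie in a cluster at the distal end of chromosome 2 that holds near-identical copies and more distant ones. Zinc finger proteins are a large family of DNA-binding proteins. To show how alike the copies are, bases upstream of the RefSeq start are printed for 2 called genes and for Gm14325, the most abundant tested copy, which was not called. They are given 5′ to 3′ on the strand of the gene, from RefSeq on GRCm38.p6, and stop at the first annotated exon or at the start of the gene's span. The window of Gm14295 lies within that gene's own span and is not printed. Capitals mark the longest run shared exactly by all 3 called genes, 36 bases.
Gm14305, chr2:176708103-176708239, plus strand: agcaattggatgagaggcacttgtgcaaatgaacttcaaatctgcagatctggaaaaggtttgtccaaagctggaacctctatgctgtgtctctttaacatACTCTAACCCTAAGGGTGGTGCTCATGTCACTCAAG
Gm14410, chr2:177206498-177206746, minus strand: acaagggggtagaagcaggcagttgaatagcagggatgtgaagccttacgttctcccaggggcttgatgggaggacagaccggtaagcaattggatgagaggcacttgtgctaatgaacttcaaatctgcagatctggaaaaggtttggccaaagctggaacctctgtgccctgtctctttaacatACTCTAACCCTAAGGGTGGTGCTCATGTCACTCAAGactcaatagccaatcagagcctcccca
Gm14325, chr2:177840337-177840586, minus strand: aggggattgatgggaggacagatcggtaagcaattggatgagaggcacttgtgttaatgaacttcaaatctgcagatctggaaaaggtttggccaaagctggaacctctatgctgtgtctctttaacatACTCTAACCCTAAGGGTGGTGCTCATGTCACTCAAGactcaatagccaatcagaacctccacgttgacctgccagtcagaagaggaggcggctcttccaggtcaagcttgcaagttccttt
The run is present in Gm14325 too. Of 32851 upstream windows of 250 bases in the table, with 1 chromosome not searched, 31 (0.0944%) hold it on either strand. In aligned bases of these windows the 3 called genes were 93.9% to 95.8% identical to each other and 93.9% to 97.3% identical to Gm14325. Within these windows the called genes were about as close to a copy that was not called as to each other. Gm14393, in the same cluster, was further off, at 76.8% to 80.8%.

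Gm14295 (chromosome 2, 176798179 to 176814092) was at 3.28 and 4.11 CPM in Host and had no count in any DKO library. Against a floor of 3 counts over the 3 DKO libraries it was at least 94.4-fold lower (adjusted p 1.62e-05). Gm14305 (chromosome 2, 176708353 to 176721813) was at 4.00 and 3.77 CPM in Host and at 0, 0.0374 and 0.187 CPM in DKO, which is 4 counts in all. The ratio of pooled levels was 73.9, with a 95% counting interval from 28.4 to 274 (adjusted p 7.13e-04). Gm14410 (chromosome 2, 177190575 to 177206497) was at 9.49 and 10.8 CPM in Host and at 3.18, 2.88 and 2.49 CPM in DKO (-1.81 ± 0.27, adjusted p 0.00906). It was lowered without being lost.

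Their neighbours did not follow. Gm14322, Gm14325 and Gm14326, at higher coordinates of the cluster, were at 8.81 to 12.4 CPM in Host and at 9.08 to 14.2 CPM in DKO, with differences of at most 0.18 on the log2 scale and overlapping groups. Of 18 tested genes in the cluster, 3 were called, all lower, and the median log2 fold change was 0.04. Gm14393 had values in the other direction, 0.723 and 0.679 CPM in Host and 1.11, 1.35 and 1.87 CPM in DKO (1.03 ± 0.41, adjusted p 1). The calls carry a limit of the counting: 88.9%, 74.8% and 86.7% of the 50-base words in the annotated transcripts of Gm14305, Gm14295 and Gm14410 also occur in transcripts of other genes, so reads may have been split among copies or dropped. Without Host 3, Host 4, DKO 2 or DKO 3 in turn, Gm14410 kept its direction and lost its call (adjusted p 0.0668 to 0.137).

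Wdfy1 (chromosome 1, 79702262 to 79776143) encodes a FYVE-domain protein of early endosomes. It was at 6.77 and 6.90 CPM in Host and at 22.4, 22.1 and 21.3 CPM in DKO, with hardly any spread within a group. The log2 fold change was 1.69 ± 0.19 (95% interval 1.28 to 2.10, adjusted p 4.55e-04). Wdfy1 stood at 12.5 ± 3.31 CPM (SD, n = 4) in ESC Host and at 28.9 ± 1.19 CPM (n = 3) in PGC-ESC DKO, a difference of 1.29 on the log2 scale (adjusted p 1.84e-04). Each EpiLC library stood below every parent of its own group. The change of the difference between the states was 0.40 ± 0.24 (adjusted p 1). The 8 libraries of Bax lines, which carry a mixed strain label, stood at 25.1 to 61.4 CPM, above the Wdfy1 level of every Host library in either state.

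Ivd (chromosome 2, 118861959 to 118882909) encodes isovaleryl-CoA dehydrogenase, a mitochondrial enzyme of leucine breakdown. It was at 47.7 and 44.9 CPM in Host and at 25.2, 25.1 and 27.6 CPM in DKO (-0.82 ± 0.14, adjusted p 0.0251). The parents showed values in the same order, 54.6 ± 5.97 CPM (n = 4) in ESC Host and 36.0 ± 1.65 CPM (n = 3) in PGC-ESC DKO (-0.53, adjusted p 0.107). Ivd is the least secure of the 7: it lost its call in each fit that left out an EpiLC library, with adjusted p from 0.0528 to 0.416, and in the fit of the 5 EpiLC libraries alone (0.0863), although the fold change stayed between -0.89 and -0.78.

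Of the 7 called genes 4 lie on chromosome 2, where 5.66% of 1271 tested genes had an unadjusted p under 0.05 (49 higher, 23 lower), beside 3.04% over all genes. In the stretch of 5 Mb that holds Ivd near its proximal end, 17 of 101 tested genes (16.8%) had such a p, 7 higher and 10 lower in DKO. The list of these genes was read after the values were seen, and Ivd is the 1 called between the EpiLC groups. The bounds of the stretch were likewise set with earlier results of these data known. It takes in Ivd and genes called between the parents, among them Spata5l1, AA467197 and Slc30a4. Its share is therefore a description of a chosen stretch and no test against the share over all genes. Vps39, which encodes a tethering protein of late endosomes and lysosomes, was at 42.3 and 36.5 CPM in Host and at 24.5, 27.5 and 17.98 CPM in DKO (-0.75 ± 0.16, adjusted p 0.184). Spata5l1 was at 19.3 and 21.2 CPM in Host and at 13.2, 12.01 and 13.6 CPM in DKO (-0.63 ± 0.24, adjusted p 1). Slc30a4, which encodes a zinc transporter, was at 15.9 and 17.4 CPM in Host and at 11.4, 9.65 and 8.398 CPM in DKO (-0.75 ± 0.30, adjusted p 1). In the other direction Map1a, which encodes a microtubule-associated protein, was at 9.06 and 19.2 CPM in Host and at 26.6, 22.8 and 53.3 CPM in DKO (1.29 ± 0.35, adjusted p 0.650), without an overlap. The other chromosomes had 1.72% to 3.49% of genes at such a p, apart from chromosome 17 with 5.93%.

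Each called gene lay on the same side in the parent comparison, and 5 of the 7 (71.4%) were called there as well. These 5 are 26.3% of the 19 genes (0.116% of 16363) called between PGC-ESC DKO and ESC Host. Of the 14 genes called in the parents alone, 10 had an unadjusted p under 0.05 in EpiLCs, beside 3.04% of all genes. Among those 10, Gm14393 had the opposite sign (1.03, beside -1.81 in the parents). A difference of the same sign was found for 11 of the 14. Cdh6, a cadherin, is an example: it was at 11.0, 10.5 and 10.7 CPM in PGC-ESC DKO and at 0.124 to 1.14 CPM in ESC Host, and as EpiLCs at 2.55, 2.66 and 2.74 CPM in DKO and at 0.596 and 0.226 CPM in Host (2.697 ± 0.72, adjusted p 0.600). Zfp277, a zinc finger gene, was at 26.3 and 29.3 CPM in EpiLC Host and at 15.2, 17.7 and 17.4 CPM in EpiLC DKO (-0.72 ± 0.14, adjusted p 0.0776), beside -0.75 in the parents. Traip, a ubiquitin ligase gene of replication stress, was at 15.4 and 18.9 CPM in Host and at 32.9, 31.8 and 36.1 CPM in DKO (0.99 ± 0.21, adjusted p 0.196), beside 1.31 in the parents. Spic, the ETS factor gene that was at 14.3 to 21.8 CPM in ESC Host and 0.677 to 1.61 CPM in PGC-ESC DKO, had no count in any EpiLC library, so its difference could not be followed.

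**Figure D2:**
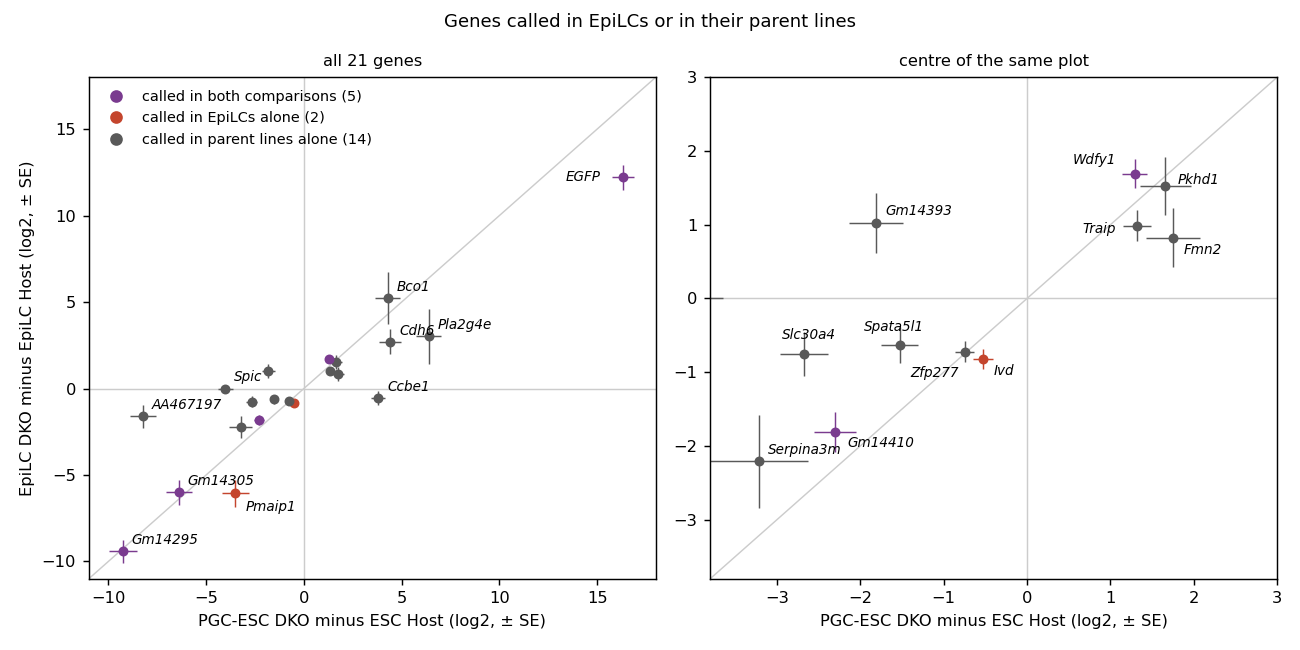
Log2 fold change of DKO against Host in EpiLCs (vertical) and in the parent lines (horizontal) for the 21 genes called in either comparison, with SE bars and the line of equal values, whole on the left and enlarged on the right. The 7 genes called in EpiLCs lie on the same side of zero on both axes, Ccbe1 lies below zero in EpiLCs and above it in the parents, and values of genes with no or few counts in a group (such as EGFP, Gm14295, AA467197, Bco1 and Spic) depend on the prior count.

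The difference between the states was tested for each gene, and 1 gene (0.00611%) passed. Ccbe1, which encodes a secreted protein needed for lymphatic growth, lies within 1 Mb of Pmaip1 on chromosome 18 (66056855 to 66291838). It was at 1.32 and 1.85 CPM in EpiLC Host and at 1.41, 1.27 and 0.435 CPM in EpiLC DKO, whereas the parents stood at 0.298 to 0.968 CPM in ESC Host and at 7.65 to 10.0 CPM in PGC-ESC DKO. The EpiLC groups overlapped (-0.56 ± 0.42, adjusted p 1) where the parents differed by 3.81, and the change of the difference was -4.37 ± 0.55 (adjusted p 0.00486). With lines paired as blocks in the 10 matched libraries it was -4.86 (adjusted p 0.173), and without EpiLC Host 4 it was -4.10 (adjusted p 0.0979), so the call does not hold in those fits.

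The next genes by this test did not pass. AA467197, which lies near Slc30a4 on chromosome 2, was at 7.64 to 19.7 CPM in ESC Host and at 0 to 0.0701 CPM in PGC-ESC DKO, and as EpiLCs at 0.511 and 0.339 CPM in Host and at 0.0899, 0.150 and 0.187 CPM in DKO (6.61 ± 1.11 for the change of the difference, adjusted p 0.113). As EpiLCs both groups were thus low. Gm14393 was lower in the DKO parents (-1.81) and had higher values in DKO EpiLCs (change 2.84 ± 0.52, adjusted p 0.196). Icam1, an adhesion molecule gene, was at 10.6 and 12.2 CPM in EpiLC Host and at 16.96, 19.4 and 19.6 CPM in EpiLC DKO (change 0.93 ± 0.19, adjusted p 0.564). Galnt6, a gene of O-glycosylation, was at 28.8 and 27.8 CPM in Host and at 45.2, 65.0 and 71.5 CPM in DKO (change 1.32 ± 0.28, adjusted p 0.564). For Slc30a4 the change was 1.92 ± 0.41 (adjusted p 0.564) and for the protease gene Prss27 4.74 ± 1.07 (adjusted p 0.804). In the other direction Chst8, Cep112, Tyro3, D430041D05Rik and Gpr176 had changes of -0.78 to -4.17, each at an adjusted p of 1.

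Naive pluripotency genes had higher values in DKO as a list, although none passed the test described above. Of 16 tested members none was called, 7 had an unadjusted p under 0.05, all higher in DKO (beside 2.04% of all genes), and the median log2 fold change was 0.72 beside 0.01 over all genes and -0.06 for the same list in the parents. Klf2, a Krüppel-like factor of the naive network, came closest: it was at 6.38 and 9.39 CPM in Host and at 15.1, 18.1 and 24.7 CPM in DKO (1.30 ± 0.23, adjusted p 0.0544). Klf2 passed in 3 of 12 alternatives, DESeq2 among them, with adjusted p from 1.82e-04 to 1 over the 12. The groups did not overlap, and all 5 values were far under the 285 to 429 CPM of the parents. Pecam1, a surface adhesion gene of the inner cell mass, was at 7.70 and 8.07 CPM in Host and at 12.3, 15.3 and 24.7 CPM in DKO (1.15 ± 0.33, adjusted p 0.756). Nr0b1, an orphan nuclear receptor gene, was at 8.85 and 9.35 CPM in Host and at 11.1, 10.7 and 34.5 CPM in DKO (1.05 ± 0.41, adjusted p 1). Zfp42 (Rex1) was at 25.2 and 25.5 CPM in Host and at 29.8, 32.1 and 30.6 CPM in DKO (0.29 ± 0.11, adjusted p 1). Esrrb, an orphan receptor of the network, was at 39.1 and 26.1 CPM in Host and at 33.3, 49.6 and 46.4 CPM in DKO, with overlapping groups.

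Much of this list value rested on 1 library. DKO 3 had the highest level of the 5 for 9 of the 15 naive genes with any count, DKO 2 for 4, and each Host library for 1. Without DKO 3 the list's median was 0.28 and 3 members had an unadjusted p under 0.05. The count of all genes higher in DKO at such a p fell too, from 334 of 16363 to 177 of 16330. Members with such a p numbered 11 without DKO 1, where 373 of 16290 genes were higher at such a p. The list's median was 0.77 without Host 3 and 0.52 without Host 4. Klf4 shows the pattern, with 2.68 and 3.05 CPM in Host, 2.46 and 3.82 CPM in DKO 1 and 2, and 10.8 CPM in DKO 3. Klf2 differs from it in that DKO 1 and 2 also lay above both Host libraries. Dppa5a, the most abundant naive gene, did not separate the groups, at 471 and 273 CPM in Host and 387, 523 and 449 CPM in DKO.

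**Figure D3:**
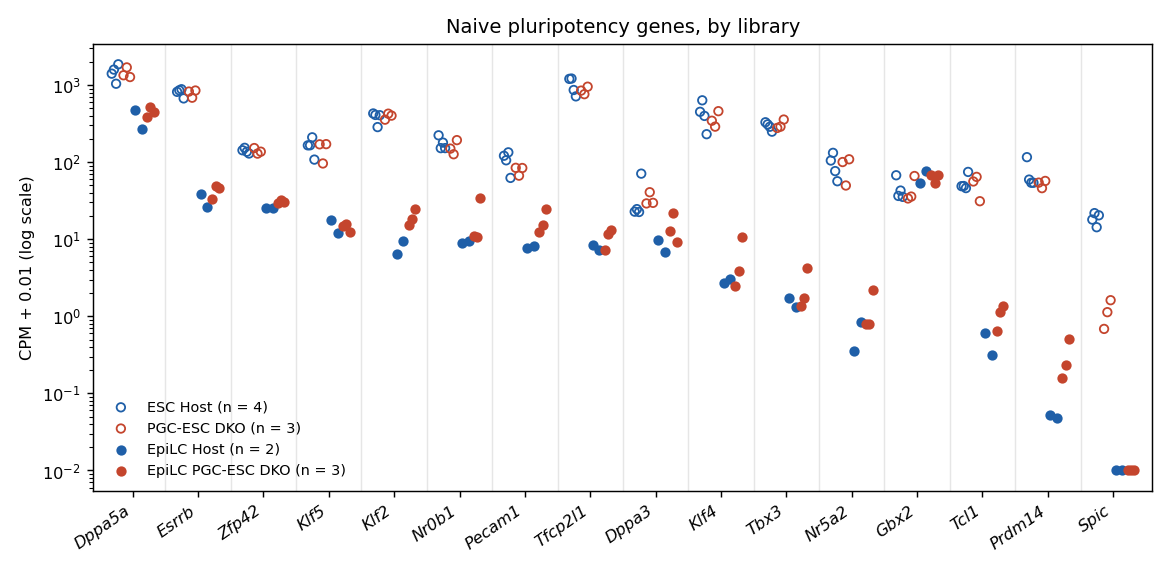
Levels of the 16 naive pluripotency genes in each library, as CPM + 0.01 on a log axis, for the parents (open circles) and the EpiLC groups (filled circles). The filled circles lie under the open ones except for Gbx2, and the highest filled circle is DKO 3 for 9 genes (Klf2, Nr0b1, Pecam1, Tfcp2l1, Klf4, Tbx3, Nr5a2, Tcl1 and Prdm14).

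Core pluripotency genes had higher values in DKO for 8 of 10, with a median of 0.24, and none was called. For 2 of them, Sox2 and Zscan10, the unadjusted p was under 0.05, both higher, and without DKO 3 the median was 0.11 and no member had such a p. Pou5f1, which encodes Oct4, was at 653 and 765 CPM in Host and at 777, 837 and 1085 CPM in DKO, without an overlap (0.36 ± 0.23, adjusted p 1). Sox2 was at 91.3 and 122 CPM in Host and at 119, 141 and 186 CPM in DKO (0.50 ± 0.18, adjusted p 1), and Nanog was at 164 and 161 CPM in Host and at 122, 157 and 46.6 CPM in DKO (-0.58 ± 0.32, adjusted p 1). DKO 3 was the end value of all 3 genes, highest for Pou5f1 and Sox2 and lowest for Nanog. Lin28a, the most abundant of the list, was at 858 and 870 CPM in Host and at 815, 737 and 793 CPM in DKO.

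None of the 15 formative genes was called, 2 had an unadjusted p under 0.05 (Otx2 and Pim2, both higher in DKO), and the median was 0.12. The median was -0.04 without Host 3, 0.30 without Host 4 and 0.06 without DKO 3, and neither the fit without Host 3 nor that without DKO 3 had a member at such a p. Otx2, the homeobox gene that drives the exit to the formative state, was at 2.81 and 6.94 CPM in Host and at 10.7, 11.1 and 36.1 CPM in DKO (2.00 ± 0.74, adjusted p 1). Pim2, a kinase gene, was at 135 CPM in Host 3 and at 324 CPM in Host 4, beside 344, 323 and 558 CPM in DKO (0.85, adjusted p 1). For both, Host 3 was lowest and DKO 3 highest. Dnmt3b, the most abundant member, had overlapping groups with 820 and 1392 CPM in Host and 1071, 938 and 1550 CPM in DKO.

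Germ cell genes were of interest because the DKO lines are named after germ cells. None of 12 early germ cell genes was called, 11 of the 12 differences were above 0 (51.0% of all genes were), and the median was 0.48. Tfap2c, a germ cell specifier, was at 10.9 and 7.54 CPM in Host and at 18.5, 27.2 and 13.2 CPM in DKO (1.10 ± 0.33, adjusted p 0.882). Prdm14, which belongs to the naive list as well, was at 0.0426 and 0.0377 CPM in Host and at 0.150, 0.224 and 0.498 CPM in DKO (2.53 ± 1.14, adjusted p 1). Prdm1, which encodes Blimp1, was at 4.08 and 5.73 CPM in Host and at 7.76, 10.3 and 4.79 CPM in DKO, and Dppa3 at 9.66 and 6.79 CPM against 12.7, 21.9 and 9.14 CPM. In these 2 genes DKO 1 and DKO 2 were above Host and DKO 3 was within it. Alpl, the alkaline phosphatase gene, stood at 63.9 to 82.4 CPM in all libraries. Of 20 late germ cell genes none was called and the median was -0.12. Ddx4, the most abundant of them, was at 52.6 and 43.8 CPM in Host and at 39.2, 38.6 and 28.9 CPM in DKO.

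Imprinted genes, which are expressed from 1 parental copy and whose marks are erased in germ cells, gave no call. Of 13 tested maternally expressed genes 3 had an unadjusted p under 0.05, all lower in DKO (beside 1.00% of all genes). These were Cdkn1c, Grb10 and Igf2r, and the Igf2r difference shrank without Host 3, as described below. The list's median was -0.43 (parents -0.48). Cdkn1c, a cell cycle inhibitor gene of the distal chromosome 7 cluster, was at 94.5 and 87.8 CPM in Host and at 22.1, 23.6 and 35.7 CPM in DKO (-1.73 ± 0.40, adjusted p 0.311). Phlda2, from the same cluster, was at 81.1 and 60.2 CPM in Host and at 28.6, 28.8 and 32.8 CPM in DKO (-1.22 ± 0.72, adjusted p 1). Grb10, an adaptor gene of insulin signalling, was at 369.98 and 360.003 CPM in Host and at 168, 148 and 204 CPM in DKO (-1.06 ± 0.46, adjusted p 1). The groups of Cdkn1c, Phlda2 and Grb10 did not overlap. Such a gap was found for 5 of the 13 genes with DKO lower and for 4 with DKO higher. The share of all tested genes with such a gap is not given here, so these counts carry no reading about the list. With DESeq2, an alternative test, Cdkn1c had an adjusted p of 0.0345, the lowest over 12 alternatives, which reached 1.

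Other maternally expressed genes had higher values in DKO. The non-coding RNA gene Meg3 was at 401 and 338 CPM in Host and at 843, 738 and 476 CPM in DKO (0.90 ± 0.77, adjusted p 1). Rian, from the same Dlk1-Dio3 cluster, was at 432 and 390.1 CPM in Host and at 783, 749 and 459 CPM in DKO (0.70 ± 0.73, adjusted p 1). H19 was at 31.4 and 26.5 CPM in Host and at 69.7, 155 and 90.9 CPM in DKO (1.87, adjusted p 1). Of 23 paternally expressed genes none was called and 19 were above 0, with a median of 0.28. Peg10, the most abundant, was at 446 and 162 CPM in Host and at 350.2, 437 and 222 CPM in DKO.

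**Figure D4:**
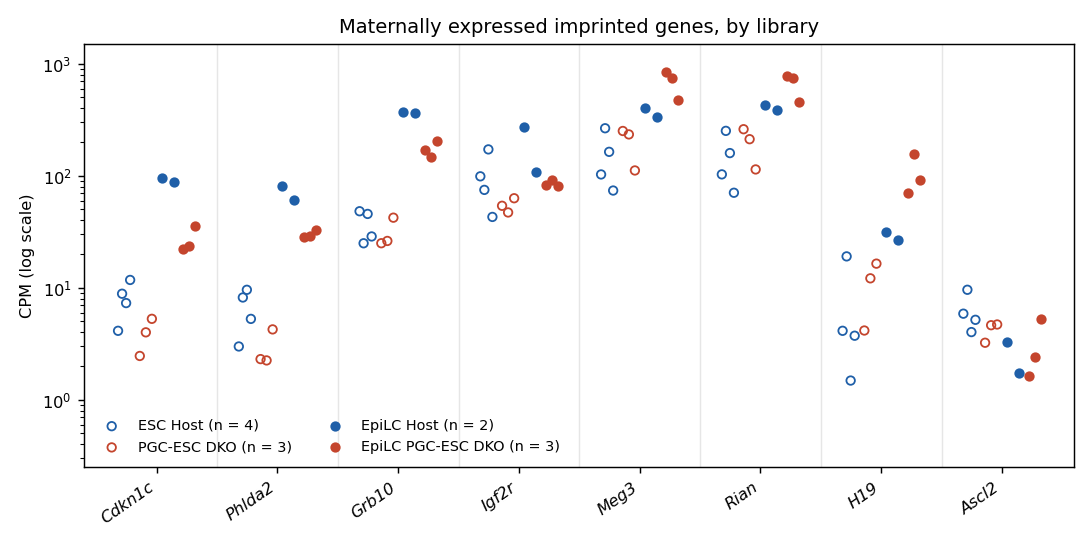
Levels of 8 maternally expressed imprinted genes in each library, as CPM on a log axis, for the parents (open circles) and the EpiLC groups (filled circles). EpiLC DKO circles lie under EpiLC Host circles for Cdkn1c, Phlda2, Grb10 and Igf2r and above them for Meg3, Rian and H19, and Igf2r is highest in the Host 3 library of each state.

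Igf2r, the mannose 6-phosphate receptor gene that is imprinted on chromosome 17 (12682406 to 12769706), differed by 1 library. It was at 273 CPM in EpiLC Host 3 but at 108 CPM in Host 4, beside 82.8, 91.7 and 81.1 CPM in DKO. The difference was -1.15 ± 0.39 (adjusted p 1), and -0.34 without Host 3. Among the parents ESC Host 3 was likewise highest, at 172 CPM against 42.9 to 98.8 CPM. The median of the maternally expressed list was -0.02 without Host 3 and -0.73 without Host 4.

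Igf2r is part of a stretch in which host line 3 stood above all others. Over the proximal end of chromosome 17, 45 genes had a mean log2 CPM above 3, and all 45 were highest in EpiLC Host 3 among the EpiLC libraries. Their median was 1.40 above the EpiLC median on the log2 scale, which is 2.63-fold, and between -0.02 and 0.00 in the other 4 libraries. In the parents 43 of the 45 were highest in ESC Host 3, with a median of 1.67, while ESC Host 4 stood at -0.14. For the 422 such genes on the rest of chromosome 17 the median was 0.00 in EpiLC Host 3. In windows of 2 Mb the EpiLC Host 3 median ran from 1.08 to 1.61 up to 18 Mb and was 0.02 between 20 and 22 Mb. Of 171 windows of 10 Mb with at least 20 such genes genome-wide, 1 had a median past 0.5 in any EpiLC library, and the next largest was 0.29.

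This stretch entered the DKO against Host comparison through 1 of its 2 Host libraries. Of 97 tested genes there, between 3064318 and 17459387, 24 had an unadjusted p under 0.05, all lower in DKO, and none was called. Those 24 are most of the 29 lower genes with such a p on chromosome 17. None of the 7 called genes lies there, and with the genes of the stretch left out, an alternative chosen after the values were seen, the same 7 genes were called. What sets host line 3 apart there was not tested.

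**Figure D5:**
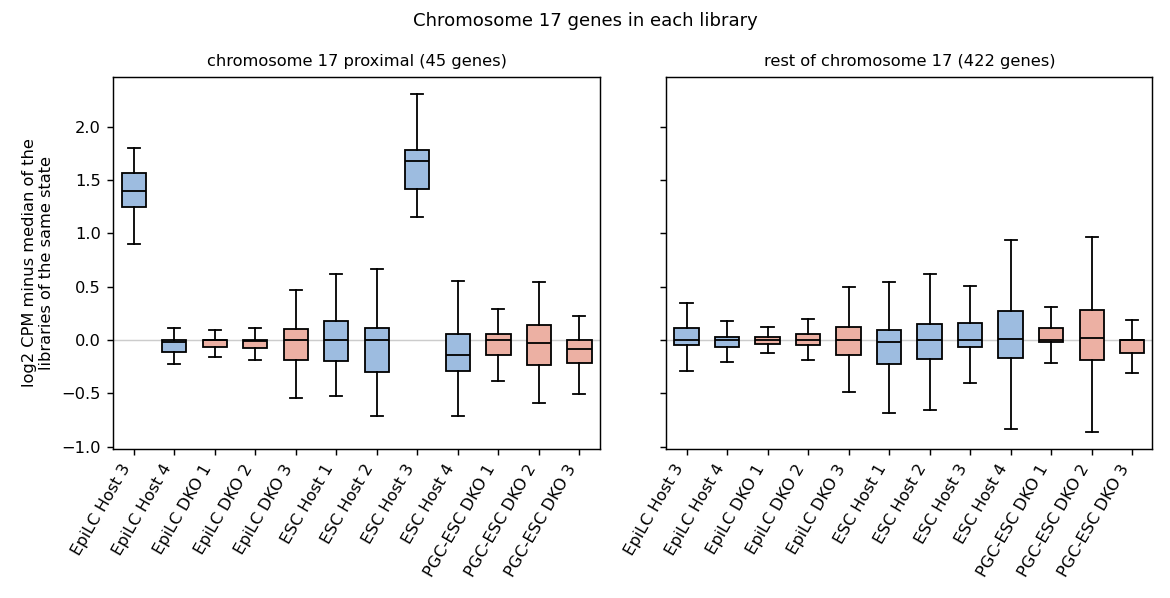
Log2 CPM of genes with a mean log2 CPM above 3 at the proximal end of chromosome 17 (left, 45 genes) and on its rest (right, 422 genes), relative to the median of the libraries of the same state; boxes give the quartiles and median, whiskers reach to 1.5 box lengths, and genes beyond them are not drawn. EpiLC Host 3 and ESC Host 3 have medians of 1.40 and 1.67 on the left, and all medians on the right lie near 0.

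Signalling genes gave no call. Tested were 15 Nodal genes (median -0.10), 19 FGF-ERK genes (0.14), 14 beta-catenin targets (0.08), 11 LIF-STAT3 genes (-0.02) and 14 BMP-Id genes (-0.04). Tdgf1, the Nodal co-receptor gene, was at 1435 and 879 CPM in Host and at 983, 947 and 786 CPM in DKO. Lefty1, a Nodal antagonist and target, was at 1035 and 606 CPM in Host and at 872, 960.5 and 353 CPM in DKO. Host 3 was highest and DKO 3 lowest for both, and the groups overlapped. Pim1, the most abundant LIF-STAT3 gene, likewise had its highest value in Host 3 and its lowest in DKO 3, with 806 and 459 CPM in Host and 522, 504 and 316 CPM in DKO. Etv5, a target of ERK, stood at 327 to 401 CPM in all libraries, Tcf7 at 88.4 to 107 CPM and the BMP receptor gene Bmpr1a at 90.8 to 112 CPM.

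Markers of other cell types were checked for their part in the libraries. None of 15 primitive endoderm, 12 trophoblast, 12 mesendoderm, 12 neuroectoderm, 15 two-cell-like or 8 fibroblast and feeder genes tested was called. The summed fibroblast and feeder list ran from 158 to 197 CPM in Host and from 126 to 152 CPM in DKO, of which Vim gave 89.7 to 98.8 and 76.8 to 116 CPM. In the parents the sum ran from 141 to 296 CPM in ESC Host and from 310 to 428 CPM in PGC-ESC DKO. The list's median log2 fold change in EpiLCs was -0.03, and 3 of the 8 tested genes were above 0. Only 2 had an unadjusted p under 0.05, both lower in DKO. Tagln, an actin-binding gene of that list, was at 79.9 and 44.4 CPM in Host and at 30.9, 30.3 and 11.8 CPM in DKO (-1.35 ± 0.33, adjusted p 0.444). Acta2 was at 1.28 and 1.55 CPM in Host and at 0.120, 0.374 and 0.124 CPM in DKO (-2.72 ± 0.79, adjusted p 0.819). Two-cell-like genes, a rare state of stem cell cultures, split the Host pair: their sum was 254 CPM in Host 3 and 87.7 CPM in Host 4, beside 202, 302 and 183 CPM in DKO, and the list's median of 0.45 became 1.35 without Host 3 and -0.12 without Host 4. Zscan4d, the most abundant, was at 46.8 and 14.7 CPM in Host and at 37.7, 56.0 and 31.9 CPM in DKO. Lamb1, Krt18, Wnt3 and Nes, the most abundant genes of the endoderm, trophoblast, mesendoderm and neuroectoderm lists, had differences of 0.14, 0.00, 0.25 and -0.39, each at an adjusted p of 1.

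Growth and metabolism lists were without calls as well. The 71 tested cytosolic ribosomal protein genes had a median of 0.08 with 66 above 0, and the 79 oxidative phosphorylation genes a median of 0.04. Rps2 was at 2599 and 2838 CPM in Host and at 3018, 3100.3 and 2815 CPM in DKO, and the ATP synthase gene Atp5b at 1649 and 1683 CPM in Host and at 1777, 1867 and 1749 CPM in DKO. Glycolysis (15 genes, median 0.14), hypoxia (10, 0.42), cholesterol synthesis (19, 0.00), G1 cell cycle (14, 0.06), the integrated stress response (13, 0.22), Polycomb repressive complex 2 (11, 0.04), DNA methylation and demethylation (12, 0.09), cadherins and Epcam (9, 0.30) and interferon response genes (9, -0.40) held no called gene. Pkm, Pdk1, Hmgcs1, Cdk4, Psat1, Rbbp4, Trim28, Ctnnb1 and Bst2, the most abundant gene of each in that order, differed by between -0.17 and 0.35. Of 35 tested Hox genes none was called. Hoxb3, the most abundant, was at 6.60 and 5.66 CPM in Host and at 4.49, 4.64 and 0.871 CPM in DKO, and the list's median of -0.49 became 0.10 without Host 3 and -0.84 without Host 4.

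The genes nearest to the threshold outside these lists, named after their values were seen, were Cdyl2, Prss27 and Inpp5d. Cdyl2, which encodes a chromodomain protein, was at 9.83 and 10.3 CPM in Host and at 19.3, 20.2 and 21.1 CPM in DKO (1.02 ± 0.18, adjusted p 0.0544). Prss27 was at 0 and 0.0377 CPM in Host, which is 1 count, and at 0.629, 0.711 and 1.06 CPM in DKO (adjusted p 0.0706), and its fitted fold changes depend on the prior count. Inpp5d, which encodes the phosphatase SHIP, was at 17.3 and 16.0 CPM in Host and at 37.2, 59.4 and 53.4 CPM in DKO (1.59 ± 0.30, adjusted p 0.0706). Cdyl2 and Inpp5d passed in 2 and 4 of 12 alternatives, DESeq2 among them. As with Klf2, their parents stood higher, at 66.2 to 97.5 CPM for Cdyl2 and at 104 to 205 CPM for Inpp5d.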

How the data were processed

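Raw read counts per gene, as deposited, came in 1 table of 21361 genes and 20 libraries. Reads were aligned with STAR 2.7.7a to mm10, per the submitters' processing notes; the sources used here name no annotation, counter or strand setting. The test was that of edgeR 4.0.16 under R 4.3.3 (quasi-likelihood F test, TMM scaling, default filter on low counts, 1 coefficient per group of all 20 libraries, 13 residual degrees of freedom) on 16363 genes, with 4998 below the filter. P-values are two-sided, adjusted over the 16363 genes by the Benjamini-Hochberg method, with calls at an adjusted p under 0.05. Levels are CPM per library total; fold changes are TMM-scaled, DKO minus Host, ± SE. Counting intervals and floors cover counting error only. Libraries within a group differed by more than sampling noise (chi-square per gene 6.75 or more). The same cell line as EpiLC and as parent pairs libraries across states (5 lines; correlation of deviations 0.0931 to 0.172). RefSeq matched 21240 symbols on GRCm38.p6. The test was run on simulated data.

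Members and lists were chosen with earlier results of these data known. Genes named were the targeted genes and EGFP, the called genes, for each of 36 lists up to 3 called members or the most abundant one, and up to 6 genes per direction for the change between states; Gm14295 and Gm14305 enter as members of a list matched on the Gm14 name, which also took in genes outside the zinc finger cluster and is not summarised. Others were chosen after their values were seen. Alternatives were RLE scaling, no filter, DESeq2 1.42.0, smaller sets of libraries, a stricter threshold, pairing by line and leaving out each library.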

Additional observations from a re-analysis of the deposited data

Results flagged for a closer look

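Ccbe1 was set apart because its DKO minus Host difference changed between the EpiLC and the parent state by -4.37 on the log2 scale, a change that passed the test of the difference itself. Among ESC Host libraries, the only group here with 4 samples, the gap of 1 library was checked for 9 genes, and 1 was marked: for EGFP, the ESC Host 4 library gave 0.547 CPM where the other 3 gave 0. For values that vary continuously, such a check marks about 1 in 20 groups by chance. With 3 libraries at 0, any count in the other library is marked, so that rate does not apply to EGFP.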

How the results depend on the processing

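The count of 7 genes between the EpiLC groups was 33 with DESeq2 (22 higher in DKO, the 7 among them) and 5 to 11 when 1 EpiLC library was left out (11 without DKO 1). EGFP, Wdfy1, Pmaip1, Gm14295 and Gm14305 were called in each of 12 alternatives. The count of 1 gene for the change between states was 5 with DESeq2, 0 in the 10 matched libraries with no replicate block, 0 with the line as a replicate block, and 0 to 1 when 1 EpiLC library was left out (0 without Host 4). In edgeR's test the fits with 0 calls had 637 (block), 623 (no block) and 395 (without Host 4) genes at an unadjusted p under 0.05, and Ccbe1 at an adjusted p of 0.173, 0.131 and 0.0979. For the comparison of the EpiLC groups themselves no paired analysis was possible, because no line is in both groups. The parent count of 19 was 90 with DESeq2 and 14 to 44 when 1 parent was left out (44 without ESC Host 4). It uses all 4 ESC Host lines, of which lines 1 and 2 had the low Rn45s levels given above. Gm14410 and Ivd lost their calls in 4 and 9 alternatives, and no called gene reversed. With 2 Host libraries, 42.3% of the genes have an interval that reaches a 2-fold change.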
